A study of Arabidopsis thaliana with 9 samples.

Results

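Wild-type Arabidopsis thaliana seedlings were compared with seedlings of a line, labelled h3.3ko;HTR5_G34R, that carries a changed histone H3.3 in a background marked as an H3.3 knockout. Both groups were 10 days old, kept at 22 °C under 16 h days and 8 h nights. There were 3 RNA-seq libraries of the wild type, accession Col, and 3 of the line, here called G34R, out of 9 libraries in the series. Levels are in TPM, a unit that corrects for gene length and gives every library the same total. The genes compared are those that averaged 1 TPM or more over these 6 libraries, 18467 of the 27655 loci listed. By the usual notation the label names glycine 34 of HTR5 exchanged for arginine. The labels do not say how many independent plants or transformants the line goes back to, and seedlings of the knockout background with an unchanged HTR5 were not analysed here, and effects of the exchange and of its knockout background cannot be told apart. Nor do they say whether the replicates of a group were grown separately, so p-values measure the spread between these libraries, which may be technical. The tissue is whole seedlings, and in such bulk samples fewer cells of a type and less RNA per cell cannot be told apart.

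Histone H3.3 is the H3 variant that is placed into chromatin outside DNA replication, mostly over transcribed genes. The glycine at position 34 lies next to lysine 36, whose methylation marks the bodies of active genes, and exchanges of this glycine in human H3.3 are known to disturb methylation of that lysine on the same tail. The plant genes HTR4, HTR5 and HTR8 all encode H3.3.

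The coding stretches around the codon of glycine 34 are shown because this codon is what the G34R label names. They are the reference sequences of the TAIR10.1 assembly from RefSeq, not those of the line, and the capitals mark the codon for glycine 34. HTR4 lies at chr4:18556213-18556251, HTR5 at chr4:18558027-18558065 and HTR8 at chr5:3472969-3473007, all on the minus strand.
HTR4: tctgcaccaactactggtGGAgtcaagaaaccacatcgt
HTR5: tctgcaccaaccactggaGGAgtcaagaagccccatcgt
HTR8: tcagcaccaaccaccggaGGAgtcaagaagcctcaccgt
The 3 genes share the codon but differ elsewhere. Over their 411 coding bases HTR4 and HTR5 differed at 46 positions (88.8% identical), HTR4 and HTR8 at 88 (78.6%) and HTR5 and HTR8 at 83 (79.8%). HTR8 RNA was at 2.35% of its wild-type level in G34R and HTR4 RNA at 32.2%, and both fell beyond the spread between libraries (log2 fold changes -5.16 ± 0.10 SE and -1.63 ± 0.04, adjusted p = 2.73e-15 and 6.29e-14). HTR5, the gene named in the label, was 0.10 ± 0.03 higher on the log2 scale (adjusted p = 0.0214). Under median-ratio scaling this value turned to -0.01 and lost its call (adjusted p = 0.781). The call was also lost with quantile normalization (adjusted p = 0.0782) and without wild-type replicate 1, 2 or 3 or G34R replicate 2 (adjusted p = 0.0509 to 0.0599).

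The libraries held 12889624 to 14730745 reads, as recovered from the deposited TPM, and 21134 to 21563 genes above 0. Within G34R, replicates 1 and 3 differed most, with a chi-square per degree of freedom of 5.58 between their read counts against 1.76 to 2.02 between wild-type libraries. Marker genes of several cell types differed between the groups. The summed level of 8 root hair markers was 15.7 to 17.4 TPM in wild type and 60.0 to 71.1 TPM in G34R, with all 8 called higher. That of 7 endodermis markers was 72.1 to 76.3 against 128 to 142 TPM, with 6 called higher and 1, SCR, lower. Guard cell markers summed to 57.5 to 62.4 TPM in wild type and 32.0 to 40.3 TPM in G34R, with 3 of 5 called lower and none higher. The 6 mesophyll markers summed to 88749 to 90009 TPM against 77355 to 83629.7 TPM, with 4 called lower and 1 higher. The pollen markers HTR10 and DUO1 were at 0 in all 6 libraries.

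In the comparison of all genes, 6196 genes were called higher in G34R (33.6% of those tested) and 2961 lower (16.0%), together 49.6%. A call is an adjusted p under 0.05 in limma on log2(TPM + 1), a scale that understates the change of weakly expressed genes. Of these, 925 were higher by at least 1 on the log2 scale (5.01%) and 286 lower by as much (1.55%). The 3 libraries of one group lay entirely above the 3 of the other for 6993 genes in the higher direction (37.9%) and 3521 in the lower (19.1%). The median log2 fold change over all tested genes was 0.10, so every list below is set beside that value. With median-ratio scaling, which brings this median close to 0, the split became 4657 higher (25.2%) and 4438 lower (24.0%).

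Of the 18467 tested loci, 10209 have no gene symbol in the reference table, and they changed about as often as the named genes. Of the loci without a symbol 32.4% were called higher and 14.4% lower, against 34.9% and 18.1% of the 8258 with one. Changes of at least 1 on the log2 scale upwards made up 5.01% of both sets.

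The largest rise without a symbol after the very short locus described further on was in AT1G68250, an uncharacterized protein. Wild-type libraries had 0, 0.399 and 0.553 TPM and those of G34R 17.4, 12.3 and 15.4 TPM. It was thus close to absent in wild type and present in every G34R library (3.62 ± 0.18, adjusted p = 2.53e-10). AT2G38390, a class III peroxidase of the cell wall, was at 9.10, 10.0 and 8.57 TPM in wild type and at 96.4, 92.5 and 92.7 TPM in G34R. All G34R libraries lay far above the wild type (3.21 ± 0.07, adjusted p = 2.82e-14). Its neighbour AT2G38380, also a peroxidase, went from 14.8 ± 1.87 TPM (SD, n = 3) to 59.1 ± 1.94 TPM. AT3G53980, a small protein of the lipid-transfer type, was at 27.4, 32.9 and 33.8 TPM in wild type and at 189, 182 and 179 TPM in G34R. The groups did not overlap (2.51 ± 0.07, adjusted p = 1.72e-13).

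AT1G14960, annotated as a polyketide cyclase and lipid transport protein, was at 7.44 ± 1.22 TPM in wild type and 54.5 ± 4.07 TPM in G34R. AT1G14240, a nucleoside phosphatase of the GDA1/CD39 type, was at 2.37 ± 0.269 against 18.8 ± 0.491 TPM. AT1G64360, uncharacterized, was at 4.46 ± 0.395 against 28.4 ± 3.72 TPM. Each of these rose by more than 2 on the log2 scale, as did AT4G02360, a putative transmembrane protein, at 1.04 ± 0.266 against 9.33 ± 0.961 TPM.

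AT1G72910, which encodes a protein with a Toll-interleukin receptor (TIR) domain, showed the largest fall after HTR8 among genes averaging 5 TPM or more. It was at 25.1, 28.1 and 29.8 TPM in wild type and at 2.69, 1.33 and 2.52 TPM in G34R, which corresponded to 295 to 369 reads against 17 to 36. Every G34R library was far below every wild-type library (fell by 3.20 ± 0.16, adjusted p = 1.39e-10). AT2G05540, a glycine-rich protein, was the most abundant of the loci without a symbol that fell most, at 757, 721 and 771 TPM in wild type and 137, 132 and 141 TPM in G34R. The G34R libraries were closely grouped below the wild type (fell by 2.45 ± 0.04, adjusted p = 3.38e-16).

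AT2G25510, uncharacterized, was at 105, 111 and 109.5 TPM in wild type and 17.99, 15.7 and 16.6 TPM in G34R, without overlap (fell by 2.63 ± 0.07, adjusted p = 6.29e-14). The uncharacterized loci AT1G75945 and AT5G24215 went from 29.6 ± 1.11 to 3.23 ± 0.776 TPM and from 26.9 ± 2.58 to 3.78 ± 0.977 TPM, and AT5G24215 overlaps another gene. AT3G44970, a cytochrome P450, went from 38.3 ± 1.57 to 6.23 ± 0.747 TPM, and AT5G62280, which carries a domain of unknown function (DUF1442), from 89.1 ± 2.77 to 16.8 ± 2.101 TPM. The loci without a symbol were chosen for large changes without overlap between the groups, so the separation in their plot, as in the other genes named for the largest changes, is part of the choice.

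**Figure D1:**
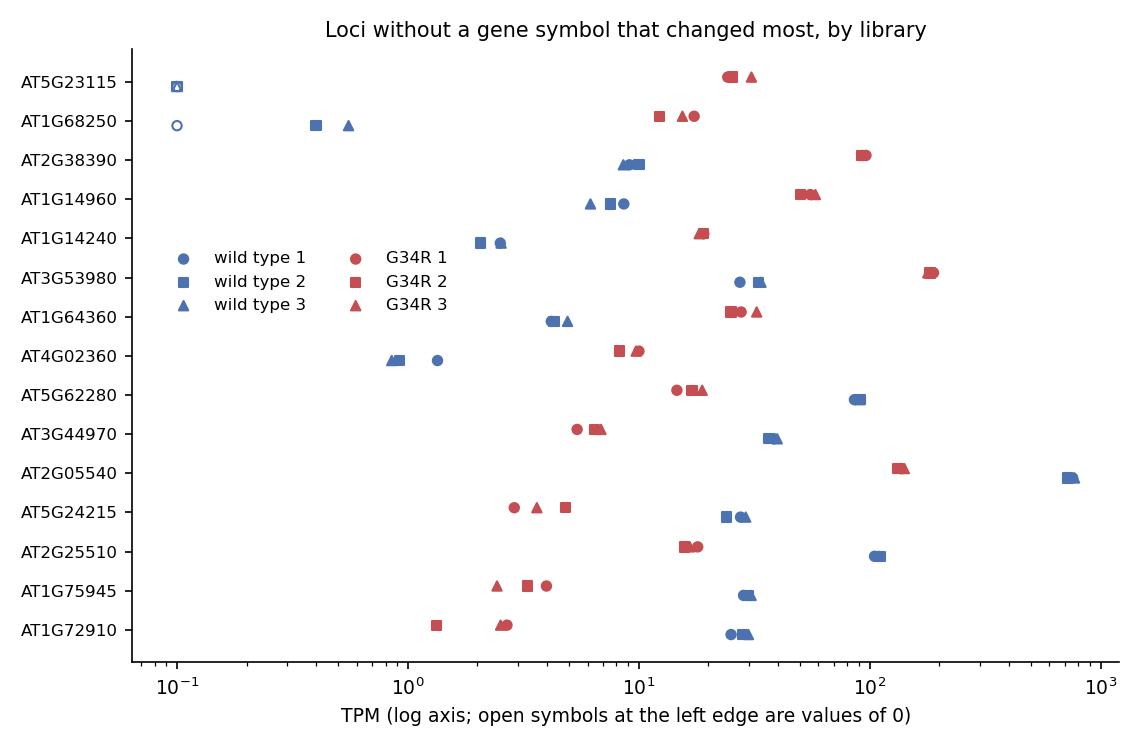
TPM on a log axis (horizontal) of the 15 loci without a gene symbol that rose or fell most, HTR8 left out because it is described above, with 1 point per library, blue for wild type and red for G34R, and open symbols for values of 0. Separation of the groups was a condition of the choice, and the loci run from AT5G23115 at the top, listed at 0 in wild type, to AT1G72910 at the bottom, which fell from 27.7 to 2.18 TPM on average.

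Among genes with a symbol the largest rises included CYP82C4, a cytochrome P450 of the iron deficiency response, which went from 4.04 ± 0.634 to 57.2 ± 4.08 TPM, and FER1, the iron storage protein ferritin, from 88.0 ± 3.08 to 522 ± 5.43 TPM. IMS2, an enzyme of methionine chain elongation in glucosinolate synthesis, went from 1.95 ± 0.164 to 18.3 ± 1.96 TPM. The falls included RLP19, a receptor-like protein, from 20.3 ± 1.32 to 2.68 ± 0.592 TPM, and IAA29, a repressor of auxin responses, from 14.0 ± 0.877 to 1.73 ± 0.619 TPM. BT1, a scaffold protein with BTB and TAZ domains, was far more abundant, at 358, 345 and 351 TPM in wild type and 58.6, 64.6 and 65.0 TPM in G34R.

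Gene families were taken from symbols and product names, 63 in all. Described are those whose share called in 1 direction was at least 2 times that over all tested genes. Since 33.6% of all were higher and 16.0% lower, this asks for a larger share of rises than of falls. It left out glutathione transferases (28 of 42 higher and 5 lower, median 0.65) and lipid transfer-type proteins (31 of 52 higher and 9 lower, median 0.99). Xyloglucan endotransglucosylases entered by their falls, although 14 of 28 were higher. None of the counts below was tested against other genes.

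Resistance proteins with a TIR domain, a nucleotide-binding site with leucine-rich repeats, or both were grouped, and some carry the TIR domain alone. Many of them detect pathogens inside the cell. They were called lower more often than higher. Of 107 tested members, 44 were lower and 11 higher, with a median log2 fold change of -0.24. Among the 71 with a TIR domain in their product name 30 were lower and 8 higher, and among the other 36, 14 and 3. AT1G66090, a TIR protein with a nucleotide-binding site, was at 18.5, 21.6 and 18.8 TPM in wild type and 3.20, 3.46 and 3.48 TPM in G34R. It was lower in each G34R library (fell by 2.23 ± 0.11, adjusted p = 2.29e-10). AT1G62630, of the coiled-coil class, went from 16.4 ± 0.151 to 7.58 ± 0.628 TPM. The libraries of G34R did not behave alike over the family. Its median relative to the wild-type mean was -0.39 in replicate 1, -0.22 in replicate 2 and -0.03 in replicate 3 on the log2 scale, and these genes are long, with a median of 2961 coding bases. Receptor-like proteins of the cell surface, also long, had 9 of 22 lower and 3 higher, and 5 lower among those averaging 5 TPM or more. The family's median level was 5.01 TPM, so that filter also left fewer members to test. The median of this family relative to the wild-type mean also differed among the G34R libraries, at -0.26, -0.10 and 0.04. RLP42, which has a close copy in RLP40 with which reads can be exchanged, was at 2.996 ± 0.206 TPM in wild type and 0.746 ± 0.293 TPM in G34R.

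In families that act in expression of the organelle genomes, more members were called lower than higher, while many were not called. The family medians were small, from -0.28 in sigma factors to -0.07 in aminoacyl-tRNA synthetases. Single members fell further, such as PTAC17 by 0.86 ± 0.08 and the mTERF gene AT1G62085 by 1.23 ± 0.20. The mTERF proteins, which regulate transcripts in plastids and mitochondria, had 13 of 30 lower and none higher, with a median of -0.27. When only genes averaging 5 TPM or more were tested, 7 were lower. The median level of the mTERF genes was 4.90 TPM, so that filter also left fewer members to test. BSM, a plastid member of this family, was at 41.7, 40.3 and 41.9 TPM in wild type and 31.1, 31.3 and 32.0 TPM in G34R. The ranges were narrow and apart (fell by 0.38 ± 0.06, adjusted p = 0.000107). Of the 6 sigma factors, which guide the plastid RNA polymerase to promoters, 5 were lower and none higher, and SIG4 was the one that was not called. SIGF was at 90.3, 89.5 and 94.5 TPM against 66.9, 71.9 and 71.1 TPM, without overlap (fell by 0.38 ± 0.05, adjusted p = 1.64e-05). The pTAC proteins of the plastid transcription complex had 10 of 19 lower and 1 higher, and 6 lower without wild-type replicate 3. PTAC16, the most abundant member named, went from 895 ± 14.1 to 759 ± 18.2 TPM, and PTAC17 from 23.8 ± 0.575 to 12.7 ± 0.707 TPM. The far larger family of pentatricopeptide repeat proteins, which bind and process organelle RNAs, had 57 of 201 lower and 3 higher, a share below the multiple that defines a described family. Aminoacyl-tRNA synthetases, which charge transfer RNAs in organelles and cytosol, had 15 of 54 lower and 7 higher with a median of -0.07. Medians of the mTERF, sigma factor, pTAC and pentatricopeptide repeat families were below the wild-type mean in each G34R library, from -0.32 to -0.12 on the log2 scale for pentatricopeptide repeat proteins and from -0.28 to -0.22 for mTERF. The summed mesophyll markers moved in the same direction (above), and their part in this was not tested.

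Proteasome subunits and ubiquitin-conjugating enzymes moved the other way, but the ubiquitin ligase families did not stand out. F-box proteins had 31 of 152 higher and 21 lower with a median of 0.02, and RING and U-box proteins 67 of 239 higher and 28 lower with a median of 0.12, shares of higher calls below that over all tested genes. Of 44 tested subunits of the proteasome, the protease that degrades ubiquitinated proteins, 34 were higher and none lower, with a median of 0.34. RPT2a, an ATPase of its regulatory particle, was at 59.6, 57.6 and 56.7 TPM in wild type and 88.6, 82.2 and 84.0 TPM in G34R. All G34R libraries lay above (0.54 ± 0.05, adjusted p = 5.03e-07). RPN10, a ubiquitin receptor of the same particle, went from 45.6 ± 1.63 to 64.2 ± 2.79 TPM. Ubiquitin-conjugating enzymes, which pass ubiquitin on to ligases and substrates, had 24 of 34 higher and none lower. UBC9 was at 71.2, 72.8 and 70.2 TPM in wild type and 106, 112 and 102 TPM in G34R, again apart (0.57 ± 0.05, adjusted p = 1.74e-07). RAB GTPases, the switches of vesicle traffic, had 30 of 43 higher and 1 lower. RABA2D was at 19.5, 21.9 and 22.1 TPM against 32.2, 36.0 and 36.5 TPM, without overlap (0.69 ± 0.08, adjusted p = 2.55e-06), and RABG3E went from 20.3 ± 1.01 to 31.8 ± 1.43 TPM. With median-ratio scaling 24 proteasome subunits, 18 conjugating enzymes and 24 RAB GTPases were called higher, and 1, 0 and 2 lower. The medians of these 3 families varied little among the G34R libraries, from 0.32 to 0.34 for the proteasome.

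Proteins annotated as adenine nucleotide alpha hydrolase-like, the fold of universal stress proteins, had 18 of 24 higher and 1 lower with a median of 0.47. RD2, a drought-responsive member, was at 33.2, 35.5 and 33.2 TPM in wild type and 68.2, 70.1 and 69.8 TPM in G34R, and AT3G53990 was at 44.5, 46.8 and 45.6 TPM against 104, 101 and 97.8 TPM. Both were raised in each G34R library (1.01 ± 0.06 with adjusted p = 1.06e-09, and 1.13 ± 0.05 with adjusted p = 9.02e-11). RD2 overlaps another gene.

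Histone genes were mostly raised as well. Of 43 tested, 37 were higher, HTR5 with its unstable call among them, and the 2 lower ones were HTR4 and HTR8. Several histone genes are near copies of each other, so the split of reads between them is uncertain. AT3G53730, annotated as a histone, was at 67.6, 71.1 and 69.2 TPM in wild type and at 287, 265 and 256 TPM in G34R, far apart (1.94 ± 0.05, adjusted p = 7.18e-14). HIS1-3, a linker histone induced by drought, went from 53.0 ± 5.06 to 353 ± 5.77 TPM. Proteins with Tudor, PWWP or MBT domains, which include readers of methylated histone tails, had 8 of 15 lower and none higher. AT1G15940 was at 15.5, 15.3 and 16.6 TPM in wild type and 7.03, 9.76 and 11.4 TPM in G34R. The groups were apart but G34R replicate 1 was lowest (fell by 0.71 ± 0.13, adjusted p = 0.000343). The count in this family was unstable, with 2 to 5 members called when wild-type replicate 1, 2 or 3 or G34R replicate 1 or 2 was left out. With median-ratio scaling it was larger, with 12 of 15 lower and none higher.

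Several families of roots and secondary walls were raised. The CYP705A cytochrome P450s had 15 of 19 higher and none lower, with a median of 0.85. Among those averaging 5 TPM or more 7 were higher. The family's median level was 4.21 TPM, so most members fell below that filter. CYP705A5, an enzyme of triterpene synthesis in roots, was at 18.1, 19.8 and 20.9 TPM in wild type and 106, 105 and 109.6 TPM in G34R, far apart (2.39 ± 0.06, adjusted p = 1.52e-13). Class III peroxidases had 33 of 44 higher and 7 lower, and dirigent proteins, which steer the coupling of lignin and lignan precursors, 14 of 18 higher and 2 lower. The dirigent gene AT4G11190 was at 9.60, 9.05 and 8.74 TPM in wild type and 37.5, 40.4 and 34.04 TPM in G34R, without overlap (1.92 ± 0.09, adjusted p = 7.48e-11). In these 3 families the changes went together with the rise of root hair and endodermis markers given above. Xylem markers also rose, from a sum of 121 to 129.9 TPM in wild type to 210.2 to 211 TPM in G34R, with 5 of 6 tested called higher and none lower. The part of these cell types in the changes was not tested.

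The families of growth, light and wall extension described next entered by a share of falls at least 2 times the 16.0% over all tested genes. Their excess of falls is thus part of the choice. Their share of rises was below the 33.6% over all tested genes except in xyloglucan endotransglucosylases (50%). Among the others it ran from 7.69% in NPH3-type proteins to 33.3% in cellulose synthases and their relatives. Medians were 0.001 in DOF transcription factors and -0.06 in cellulose synthases and their relatives. Families of these themes that were left out had more rises than falls in response regulators (9 of 15 higher and 3 lower). The same held for CLE, RALF and other peptides (16 of 43 and 4) and for expansins (9 of 22 and 6). The B-box zinc finger factors, which act in light and flowering responses, had 14 of 28 lower and 8 higher. BBX16 was at 200.02, 199 and 198 TPM in wild type and 115, 119 and 130.1 TPM in G34R, without overlap (fell by 0.71 ± 0.05, adjusted p = 6.86e-09). NPH3-type proteins, partners of the blue light receptor phototropin, had 12 of 26 lower and 2 higher. RPT2 of this family went from 1109 ± 13.9 to 599 ± 38.9 TPM, whereas AT3G15570 was higher, at 21.7 ± 0.521 against 32.4 ± 3.38 TPM, and overlaps 2 other genes. The 3-ketoacyl-CoA synthases, which lengthen fatty acids for waxes and suberin, had 8 of 15 lower and 3 higher, among the lower KCS6 at 359.7 ± 11.1 against 202 ± 4.86 TPM.

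Xyloglucan endotransglucosylases, which remodel the wall, divided into 14 higher and 10 lower of 28, with a median log2 fold change of 0.40. XTH9 was at 79.5, 76.9 and 70.6 TPM in wild type and 246, 263 and 242 TPM in G34R, and XTH6 was at 434, 430.2 and 410.2 TPM against 193, 203 and 195 TPM. Both pairs of groups were apart, in opposite directions (1.71 ± 0.05 with adjusted p = 5.85e-13, and fell by 1.103 ± 0.04 with adjusted p = 2.65e-12). Cellulose synthases and their relatives had 10 of 30 in each direction. CESA5 went from 75.5 ± 2.35 to 42.3 ± 3.86 TPM and CSLE1 from 25.6 ± 1.07 to 49.9 ± 2.36 TPM. Of 22 genes of auxin transport and synthesis 8 were lower and 4 higher. LAX3, an auxin importer, was at 28.6, 28.1 and 27.9 TPM against 12.9, 13.4 and 13.0 TPM, whereas EIR1, the root auxin exporter also known as PIN2, was at 1.67, 1.23 and 1.75 TPM against 5.94, 6.04 and 6.27 TPM. Each separated the groups (fell by 1.05 ± 0.08 with adjusted p = 2.08e-08, and 1.48 ± 0.15 with adjusted p = 8.28e-07). The DOF transcription factors had 9 of 27 lower and 7 higher, and SAUR growth genes 23 of 53 lower and 15 higher, among them CDF1 at 42.7 ± 2.22 against 27.8 ± 1.15 TPM and AT1G29460 at 40.0 ± 3.23 against 17.1 ± 0.859 TPM.

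**Figure D2:**
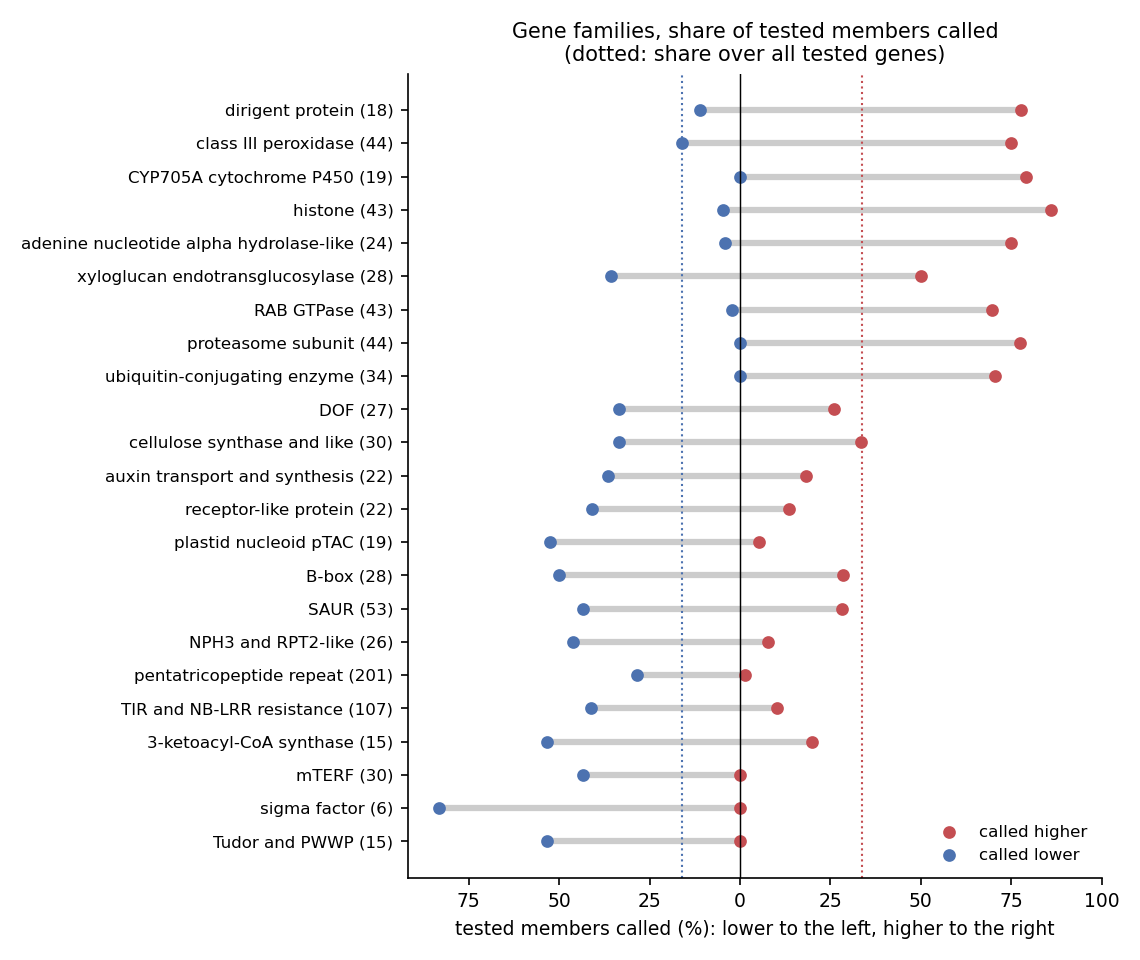
Share of tested members called lower (blue, to the left) and higher (red, to the right) in G34R, in percent, for the 22 families described and for pentatricopeptide repeat proteins, ordered by median log2 fold change, with the number of tested members in parentheses. Dotted lines mark the 33.6% higher and 16.0% lower over all tested genes, and histones (37 of 43 higher) and sigma factors (5 of 6 lower) lie farthest from them in each direction.

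Short genes were raised more often than long ones. Tested genes were divided into 5 quintiles of equal size. In the quintile with the shortest coding sequence, 18 to 642 bases, 51.8% were called higher and 12.4% lower, with a median log2 fold change of 0.28. In the next quintiles the share higher was 41.1%, 32.5% and 27.8%. In the longest quintile, 1875 to 16203 bases, 15.0% were higher and 20.4% lower, with a median of -0.05. By gene span, introns included, the medians ran from 0.23 in the shortest quintile through 0.17, 0.14 and 0.08 to -0.02 in the longest. These are descriptions across genes, which share libraries and are not independent replicates.

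The pattern was seen in each G34R library but its size differed. The median difference between the longest and the shortest quintile by coding length was -0.45, -0.35 and -0.19 in G34R replicates 1, 2 and 3 and -0.01, -0.01 and 0.02 in the wild-type libraries, on the log2 scale relative to the wild-type mean. All G34R values lay below all wild-type values (two-sided exact permutation test, p = 0.1, the smallest that 3 libraries against 3 allow). The shortest quintile hardly differed among the G34R libraries (0.29, 0.29 and 0.27), whereas the longest quintile was at -0.16, -0.06 and 0.08. In the TPM as deposited, the signs in the longest genes thus disagreed among replicates. The levels of both quintiles depend on the scaling. Median-ratio factors were 1.02, 1.04 and 1.08 in G34R replicates 1, 2 and 3 and 0.964 to 0.971 in wild type. With that scaling the median log2 fold change was 0.17 in the shortest and -0.15 in the longest quintile. Values by library were not computed with it. RNA integrity was not given in the sources used here, and its part in the pattern was not tested. The difference by span was -0.25, and -0.20 without G34R replicate 1 or -0.30 without replicate 3.

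The number of exons gave no such order. Among genes with a single exon 29.4% were higher and 25.1% lower, against 41.7% and 14.8% of those with 3 to 5 exons and 20.4% and 14.2% of those with 11 or more. The difference by coding length was seen in single-exon genes and in the others. The shortest quintile had a median of 0.18 among single-exon genes and 0.29 among genes with more than 1 exon, and the longest quintile -0.14 and -0.05. It was also seen within classes of expression. At 20 to 100 TPM, 60.2% of the shortest quintile were higher and 13.2% lower, against 15.8% and 33.01% of the longest. The families above differ in length too. Coding length had a median of 411 bases in histones, 519 in ubiquitin-conjugating enzymes and 651 in RAB GTPases, but 2961 in resistance genes and 2481 in Tudor and PWWP proteins. Set against the median of their own length quintiles, the family medians were 0.25 in histones, 0.09 in conjugating enzymes, 0.17 in RAB GTPases, -0.21 in resistance genes and -0.37 in mTERF proteins. The value was 1.11 in dirigent proteins and 0.79 in the CYP705A family. These kept their direction, but the conjugating enzymes came down from 0.31. RING and U-box proteins went from 0.12 to 0.03, and F-box proteins changed sign, from 0.02 to -0.07. Of the described families DOF factors changed sign too, from 0.001 to -0.13. Cellulose synthases and their relatives went from -0.06 to -0.003, and xyloglucan endotransglucosylases from 0.40 to 0.23. The quintiles are wide and leave differences in length within them. The part of length in the family medians was not tested.

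**Figure D3:**
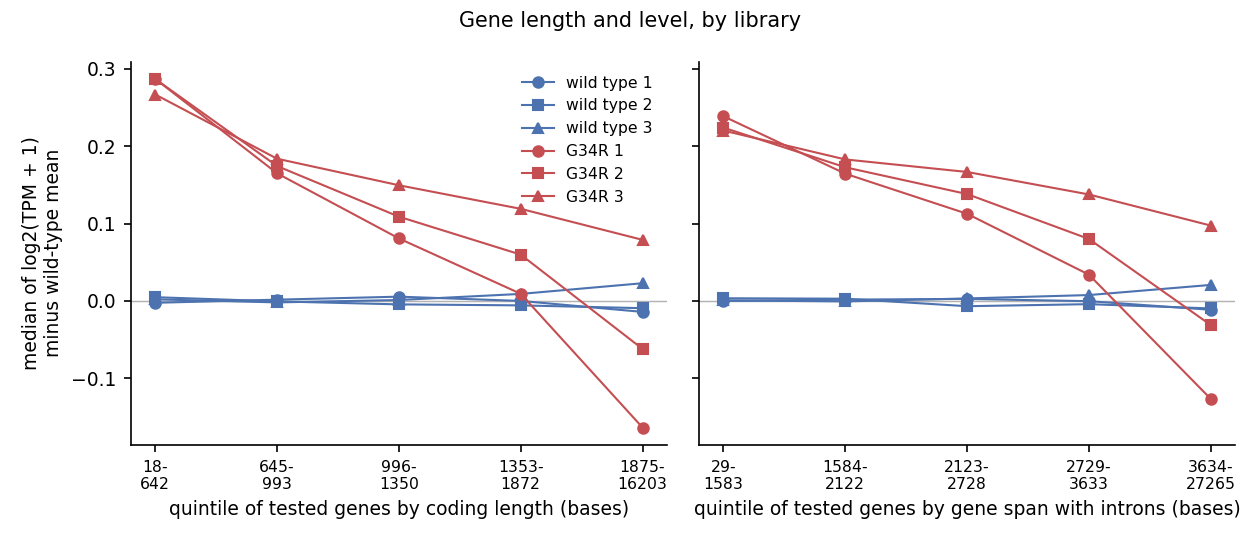
Median of log2(TPM + 1) minus the wild-type mean (vertical) in each quintile of tested genes by coding length (left) and by span with introns (right), with 1 line per library, blue for wild type and red for G34R. The wild-type lines stay near 0, and the G34R lines run from 0.27 to 0.29 in the shortest coding quintile to values between -0.16 and 0.08 in the longest.

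The most abundant transcripts went down. Of the 100 genes above 1000 TPM, 59 were called lower and 15 higher, with a median of -0.12. In the classes of 1 to 5, 5 to 20, 20 to 100 and 100 to 1000 TPM the share lower was 10.8%, 11.3%, 21.6% and 33.6% and the share higher 28.9%, 31.9%, 38.1% and 40.7%. The share called depends on the number of reads as well as on the size of a change. The medians fell across these classes from 0.15 through 0.12 and 0.08 to 0.03. In the highest class DR4, drought-repressed 4, was the largest rise, at 586, 655 and 642 TPM in wild type and 1854, 1814 and 1803 TPM in G34R. LHB1B1, a light-harvesting chlorophyll protein, was the largest fall, at 5315, 5444 and 5363 TPM against 2809, 2738 and 2530.2 TPM. Both were far outside the spread of the libraries (1.54 ± 0.04 with adjusted p = 5.34e-14, and fell by 0.998 ± 0.03 with adjusted p = 1.3e-12). The difference between the highest and the lowest class was -0.27, with -0.21, -0.27 and -0.35 in the G34R libraries and -0.02 to 0.01 in wild type (two-sided exact permutation test, p = 0.1, again the smallest possible). Quantile normalization, which forces the libraries to one distribution, turned it to 0.04. TPM sum to the same total in every library, so the values of abundant and of other transcripts are not independent. The part of this in the rises was not tested. The 6 mesophyll markers are themselves members of this class, so their lower sum (above) is not a separate observation. Of these markers 4 were called lower, LHCB1.2 was called higher and RBCS1A was not called.

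**Figure D4:**
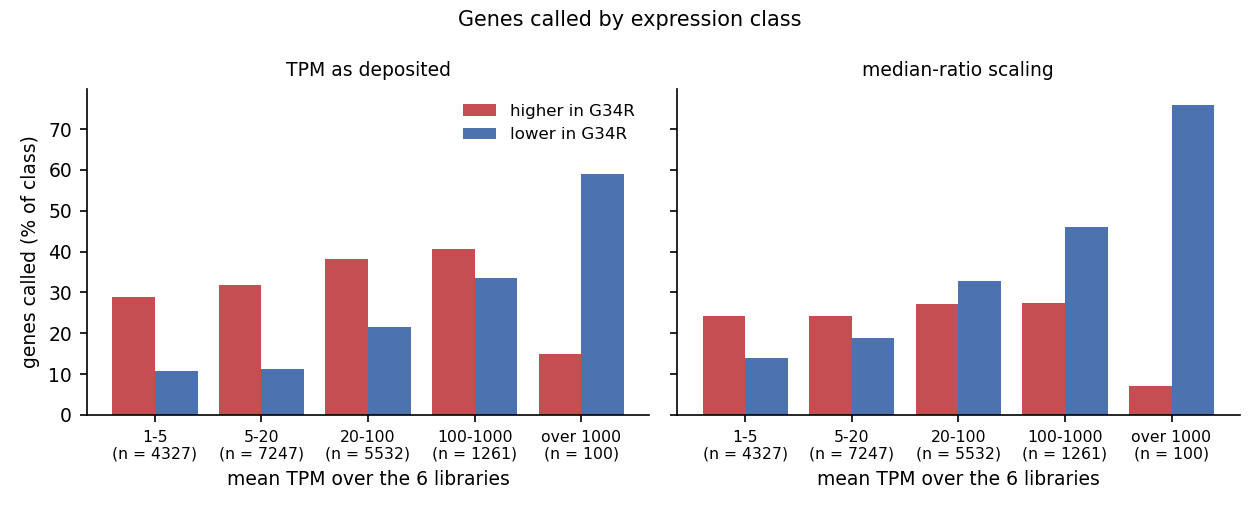
Percent of tested genes called higher (red) or lower (blue) in G34R in 5 classes of mean TPM, with the TPM as deposited (left) and after median-ratio scaling (right), and the number of genes per class under the axis. The share called lower rises with abundance under both scalings, from 10.8% to 59% as deposited and from 13.9% to 76% with median-ratio scaling.

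The calls were spread over the chromosomes, with 32.4% to 34.6% of genes higher and 15.4% to 17.0% lower on each. Runs of at least 4 neighbouring tested genes called in the same direction numbered 208 for rises, with 957 genes, and 15 for falls, with 67 genes. Since 33.6% of genes were called higher and 16.0% lower, neighbours called alike occur without any link between them, and no test of the runs was made. The longest runs of falls held 6 genes, and one of them ran from AT1G72900 to HTH on chromosome 1. It held AT1G72910 (described above), AT1G72920, TIR and AT1G72940, all with TIR domains. AT1G72920 was at 21.8, 21.2 and 21.3 TPM in wild type and 4.73, 5.74 and 2.95 TPM in G34R, TIR at 108, 109 and 118 TPM against 74.9, 68.2 and 67.3 TPM, and AT1G72940 at 39.5, 34.2 and 38.2 TPM against 25.5, 22.2 and 23.3 TPM. In none of the 6 genes did the groups overlap. The falls differed in size, from 0.23 ± 0.05 in HTH, a cuticle gene, to 3.20 in AT1G72910. AT1G72920 and AT1G72940, and TIR and AT1G72910, share stretches of at least 95% identical coding sequence, so reads can be exchanged between them and the split within these pairs is uncertain.

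Another falling run of 6 lay on chromosome 3 from AT3G11630 to FLA18 and included the membrane proteins NHL1 and NHL2 and DGD1, which makes galactolipids of plastid membranes. DGD1 went from 57.2 ± 1.29 to 37.7 ± 3.01 TPM and NHL2 from 20.2 ± 1.85 to 12.1 ± 1.25 TPM. The longest run of rises held 9 genes on chromosome 3, from the histone gene AT3G45930 to RABE1c. Its length depends on the scaling, since RPS15AD and EXLA1 within it were not called with median-ratio scaling (adjusted p = 0.301 and 0.0733). HTB9 and HTB11, which encode histone H2B, were at 236, 221 and 219 TPM against 391, 405 and 381 TPM, and at 174, 162 and 161 TPM against 316, 298 and 305 TPM. Both histone genes were above the wild type in all G34R libraries (0.79 ± 0.04 and 0.88 ± 0.04). The actin depolymerizing factors ADF1 and ADF2 in this run went from 109 ± 0.604 to 136 ± 2.15 TPM and from 59.4 ± 2.43 to 89.99 ± 4.02 TPM. A run of 8 on chromosome 1 held the light signalling genes PIF3 and PHYA, at 8.18 ± 0.575 against 14.8 ± 0.724 TPM and at 51.6 ± 1.31 against 76.6 ± 8.25 TPM, and GLP5, a germin-like protein, at 117 ± 5.16 against 358 ± 12.7 TPM. This run was not stable, because the groups overlapped in its member AT1G09575, which lost its call in 8 alternatives, median-ratio scaling among them, and MYB61 lost its call in 3.

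**Figure D5:**
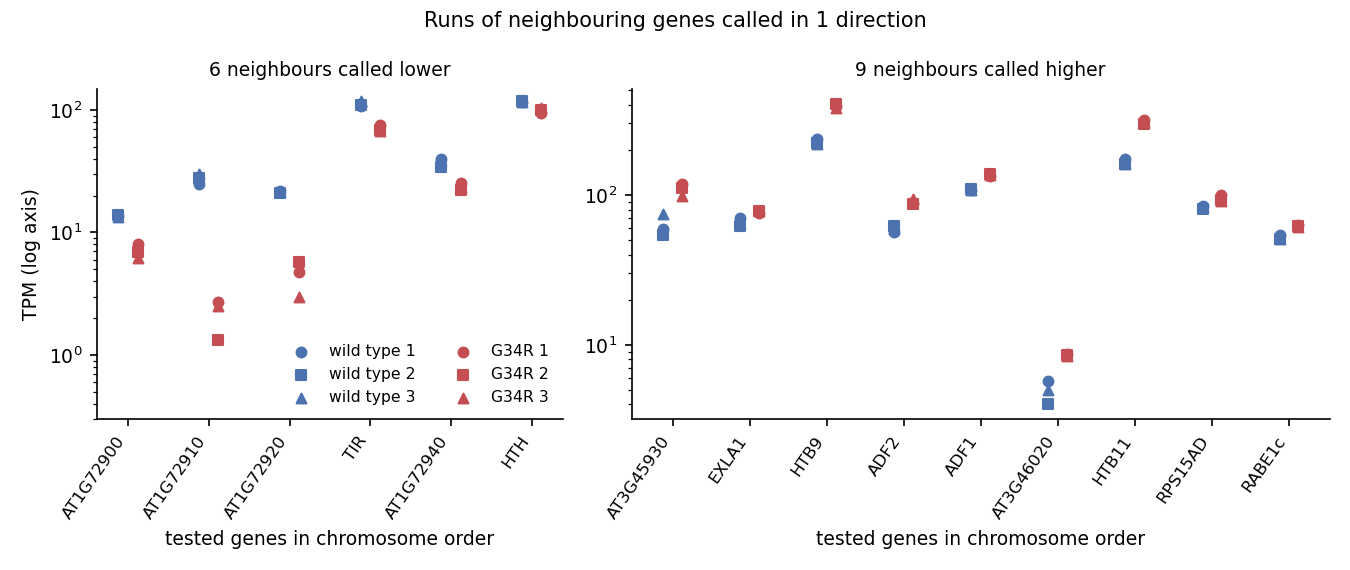
TPM on a log axis (vertical) of the 6 neighbouring genes called lower from AT1G72900 to HTH (left) and the 9 called higher from AT3G45930 to RABE1c (right), in chromosome order without scale, with 1 point per library, blue for wild type and red for G34R. On the left the red points lie below the blue ones in every gene, farthest in AT1G72910, and on the right above them in every gene.

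A locus can also be listed at 0 in all libraries of one group. This held for 771 loci at 0 in wild type and above 0 in G34R, 13 of them with a mean of at least 1 TPM in G34R, and for 460 loci the other way round, 3 of them with at least 1 TPM in wild type. AT5G23115 had the highest such level, at 0 in wild type and 24.3, 25.4 and 30.7 TPM in G34R. Its annotated span is only 29 bases, so that 1 read is worth 5.02 TPM and the G34R values rest on 5, 5 and 6 reads. With a floor of 3 reads in each wild-type library it was at least 1.63-fold higher in G34R. The locus is shown whole, because its length is what makes the high TPM, and it lies at chr5:7777595-7777623 on the minus strand of TAIR10.1.
AT5G23115: ttcaaagattgatgaaccctaagagttaa
Such TPM say little about abundance, and this locus would lead a ranking by fold change. Of longer loci, AT5G36907, uncharacterized, was at 0 in wild type and at 2.85, 1.39 and 1.80 TPM in G34R (at least 3.12-fold higher with the same floor). PAP85, a cupin of seeds, was at 0 and at 1.33, 2.39 and 1.61 TPM (at least 8.25-fold higher). The 9 seed markers summed to 2.67 to 3.94 TPM in wild type and 24.2 to 27.1 TPM in G34R, most of it from CRA1, while the seed storage genes CRB, SESA1 and SESA4 were at 0 throughout. AT1G77525, a defensin-like protein, was at 0 against 3.07, 0.990 and 1.496 TPM. In the other direction AT5G42280, a cysteine- and histidine-rich C1 domain protein, was at 1.97, 2.48 and 2.67 TPM in wild type and at 0 in G34R, at least 15.5-fold lower, on 35, 43 and 50 reads. It overlaps another gene. VATG3, a subunit of the vacuolar proton pump, and AT2G34317, annotated as avirulence-induced, were also at 0 in G34R, from 1.15 ± 0.577 and 1.21 ± 0.213 TPM.

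Short motifs were counted in the promoters of the genes that changed by at least 1 on the log2 scale, beside all tested genes, with no test. Windows from 250 bases before to 50 bases after the annotated start were searched on both strands in RefSeq sequence of TAIR10.1 for 18387 tested genes, 925 of those higher and 280 of those lower. The site II element TGGGCC, found in promoters of many ribosomal protein genes, was in 19.2% of all windows but in 6.70% of those of the higher and 8.93% of those of the lower genes. The telo-box AAACCCTA was in 5.44% of all, 3.57% of the higher and 4.29% of the lower. The abscisic acid response core ACGTGT was in 13.5% of all, 15.1% of the higher and 20.7% of the lower, and the TATA-like TATAAA in 51.4%, 60.8% and 56.1%. The W-box cores TTGACC and TTGACT, the letters bound by WRKY factors, were in 14.3% and 21.6% of all windows, in 15.5% and 24.8% of those of the higher and in 16.1% and 21.8% of those of the lower genes. The G-box CACGTG was in 9.10% of all windows, 8.22% of the higher and 11.8% of the lower. The evening element AAAATATCT was in 3.002%, 3.24% and 3.21%, the drought element core ACCGAC in 6.29%, 3.35% and 5.71%, and ACGCGT in 2.30%, 2.05% and 3.21%. Motifs of these lengths can overlap each other within a window, and a match is only a run of letters.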

How the data were processed

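RNA from whole seedlings was extracted with a Takara MiniBEST kit and made into libraries with a NEBNext Ultra RNA kit, per the labels' protocols. The submitters' processing notes list the TAIR10 build, HISAT2 2.1.10, fastp 0.20.1 and DESeq2 1.26.0. The authors deposited TPM per gene. The table has a column for each replicate, and how strand was treated is not given in the sources used here. TPM multiplied by gene span gave whole reads for 23088 of the 23235 genes above 0 in at least 1 library (99.4%, tolerance 1e-06), and these reads were used for depth and for a count-based alternative.

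Values of genes averaging 1 TPM or more in the 6 libraries were put on the log2(TPM + 1) scale and fitted with a mean trend in limma 3.58.1 (R 4.3.3), two-sided, using Benjamini-Hochberg adjustment over all 18467 genes and a threshold of 0.05. A count of 3 reads in a gene of 1 kb corresponds to 0.422 to 0.495 TPM. Alternatives were other scalings, pseudocounts and filters, limma-voom on the reads, all 9 libraries, a replicate block and leaving out each library. Gene models came from RefSeq TAIR10.1, in which 27445 of 27655 loci were found, and close copies (at least 95% identity over at least 50% of the coding length) were found with blastn 2.17.0. Libraries sharing a replicate number did not deviate together (correlations of deviations over all pairs of libraries from -0.04 to 0.03).

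Named genes were HTR4, HTR5 and HTR8, the 12 largest changes each way among called genes with at least 5 TPM and no overlap between the groups, the 8 largest each way without a symbol, up to 4 called members per described family by smallest adjusted p, the 2 largest changes per span and expression class, the members of the longest runs, and 4 loci each way listed at 0 in one group. The text gives those that show each result. The genes and lists were chosen with earlier results of these data known, and family membership was corrected after values had been seen.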

Additional observations from a re-analysis of the deposited data

How the results depend on the processing

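Scaling moved the balance of calls most. Quantile normalization called 4405 genes higher (23.9%) and 4762 lower (25.8%), and it turned the difference between the most and the least abundant expression class from -0.27 to 0.0421. Median-ratio scaling turned HTR5 to -0.0148. The cause was not tested. Of all calls 67.7% were higher as deposited, 51.2% with median-ratio scaling and 48.1% with quantile normalization. Leaving out 1 library gave 5322 to 6040 genes higher and 2502 to 3283 lower, a span difference of -0.303 to -0.197 and an expression class difference of -0.297 to -0.232. The replicate numbers do not pair the libraries, and a fit with the replicate block called 6352 genes higher and 3091 lower. Voom on the recovered reads called 6605 and 3056. Of the named genes under all alternatives, 2148 results stayed on their side of the threshold, 45 lost their call and 1 reversed. Most named genes were chosen because they were called in these same libraries. Their stability is thus largely part of the choice and says little about other genes. Weakly expressed genes are limited by depth, since a few reads decide their values.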
